A study of Drosophila melanogaster with 31 samples.

Results

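The core circadian clock genes of Drosophila melanogaster were described over exposure to odor and light, age and tissue. The 10 genes were chosen by their place in the clock: per, tim, Clk, cyc, vri, Pdp1, cry, cwo, dbt (called dco in the annotation) and sgg. Their values were taken from the estimated counts of all transcripts of each gene, among 13821 genes with matched transcripts. Chromosome positions below are those of the BDGP6.54 annotation. All 10 had counts in each of 31 libraries and passed the filter on low counts in brain, in antenna and in both tissues together.

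The negative arm is per (chrX:2685580-2692780, plus strand) and tim (chr2L:3493986-3508119, minus strand), and the positive arm is Clk (chr3L:7763233-7775603, minus) and cyc (chr3L:19813770-19815938, minus). The second loop holds vri (chr2L:5288944-5311223, plus), Pdp1 (chr3L:7811458-7867369, minus) and cwo (chr3R:10388258-10400752, plus). The light receptor gene cry lies at chr3R:19212154-19215442 (plus), and the kinase genes dbt and sgg lie at chr3R:31054085-31061210 (minus) and chrX:2633952-2679553 (plus).

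The fly clock is a feedback loop of transcription. CLK and CYC form a dimer that activates per and tim, and the PER and TIM proteins enter the nucleus and repress that dimer. In a second loop, the dimer activates vri and Pdp1, whose products repress and activate Clk, and cwo, whose product competes for the same E-box sites. The kinases DBT and SGG phosphorylate PER and TIM and set the pace. CRY is a blue-light receptor that binds TIM in the light and leads to its degradation, so that light resets the clock through protein loss and not directly through transcription. In the brain the clock runs in a small set of neurons and in many glia, while the antenna holds clocks of its own in olfactory sensory neurons, where cry also takes part in the rhythm itself.

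RNA-seq libraries from male flies covered 13 groups. The antennal libraries came from segments 2 and 3 of the antenna of flies aged 4 to 5 days, either OreR wild type or Orco2, a loss-of-function mutant of the odorant co-receptor gene Orco that also carries a white (w*) allele, each kept without sensory stimulation (0 min) or exposed to odor and light for a time labelled as 10, 20 and 30 min, with 2 libraries per group. The brain libraries came from OreR wild type at 4 to 5 days (called 5-day below) after 0, 10, 20, 30 and 45 min of odor and light with 3 libraries each, and at 10 and 25 days after 0 and 30 min with 2 libraries each. Genotype and strain background cannot be told apart in the antennae, and the labels give neither the time of day of dissection nor the number of flies pooled. The replicates are called biological by the series, and p-values measure the spread between these libraries only.

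Total counts, in units of 1000000, ran from 18.5 to 54.9 in antennae and from 19.3 to 76.7 in brains. Orco was at 1990 to 2040 normalised counts per 1000000 counts (CPM) in OreR antennae and at 7.65 to 8.59 CPM in Orco2 antennae. The tissue labels held against markers. Summed antennal olfactory markers stood at 9126 to 14550 CPM in antennae and 5 to 15.6 CPM in brains, and summed neuronal markers at 8521 to 13083 CPM in brains and 2184 to 4166 CPM in antennae. Photoreceptor markers were also present in the antennal libraries. Their sum over 9 measured genes ran from 945 to 11565 CPM there against 90.8 to 1347 CPM in brains, with none at 0. In 5 of the 23 brain libraries, the 81 cytosolic ribosomal protein genes lay more than 0.5 below the mean of the brain libraries on the log2 scale, by 0.76 or more. These were 0 min replicates B and C and 20 min replicate C at 5 days, and replicate B of both groups at 25 days. They are called the low libraries here, and the values without them are given beside the clock gene results whose call changed when they were left out.

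Per unit of transcript length, sgg was the most abundant member in brain and cry in antenna. Over the 23 brain libraries the median level in TPM (transcripts per 1000000) was 431 for sgg, 257 for Pdp1, 98.4 for cry, 95.6 for dbt, 61.5 for cyc, 38.2 for tim, 30.2 for cwo, 20.6 for per, 9.94 for Clk and 6.64 for vri. Neighbours in this order overlapped in range, except that Pdp1 (193 to 379 TPM) lay above all libraries of cry (35.2 to 118 TPM). In the 8 antennal libraries the order of median TPM was cry at 282, sgg at 136, Pdp1 at 119, cyc at 38, dbt at 36.8, tim at 33.3, cwo at 24, Clk at 21.1, vri at 20.3 and per at 9.13. The lowest cry library in antenna (263 TPM) stood above the highest library of sgg (161 TPM). At the other end the highest library of per (14.6 TPM) stood just below the lowest of vri (14.8 TPM). The smallest summed count of any member was 182, for vri in a 5-day brain.

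Unstimulated OreR antennae and unstimulated 5-day OreR brains differed in 8 of the 10 clock genes, 5 higher and 3 lower in the antenna. The light receptor gene cry led those that were higher, followed by vri and Clk, while the kinase genes dbt and sgg and the activator gene Pdp1 were lower. The test was edgeR's quasi-likelihood test on all 31 libraries with Benjamini-Hochberg adjustment over 11772 genes. It called 6835 genes, or 58.1%, so that a call in itself sets a clock gene apart from few others. In whole tissue, fewer cells that express a gene and less RNA per cell cannot be told apart. Fold changes are antenna over brain, and CPM in this comparison were normalised over both tissues together. Brain values of the members are listed as replicates A, B and C, of which B and C are low libraries.

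Among the genes of the light input and the loop's positive arm, cry stood at 363 and 321 CPM in the antennal libraries against 77.1, 61.9 and 43.3 CPM in the brain libraries. This is a log2 difference of 2.49 ± 0.38 (SE; adjusted p = 8.1e-06 by edgeR), or 5.64-fold, with the low libraries included. Replicate A, the brain library that was not low, was nearest to the antennae at 77.1 CPM, so against it alone the difference is smaller. The groups did not overlap, and over the whole series the lowest antennal library (321 CPM) stood above the highest brain library (98.6 CPM). Clk, the partner of cyc in the activating dimer, was at 68.1 and 65.2 CPM in antenna against 18.8, 21.9 and 21.2 CPM in brain. The log2 difference was 1.69 ± 0.19 (adjusted p = 1.9e-07), with all antennal libraries (58.7 to 74.3 CPM) above all brain libraries (14.3 to 25 CPM). For cyc, with 46.9 and 42.1 CPM in antenna against 39.5, 35.4 and 31.8 CPM in brain, the difference was 0.32 (95% interval -0.18 to 0.82, adjusted p = 0.254). The libraries of cyc did not overlap either, but by less than the test could separate. In TPM the direction was turned, at 45.4 and 41.8 in antenna against 63.1, 58.1 and 51.6 in brain.

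In the second loop, vri, which encodes the repressor of Clk, was at 39.0 and 40.3 CPM in antenna against 16.2, 10.2 and 7.91 CPM in brain. Its log2 difference was 1.80 ± 0.29 (adjusted p = 1.91e-05), again with no overlap over the series (39 to 135 CPM in antennae, 7.37 to 24.4 CPM in brains). Brain replicate A, which was not low, was again nearest to the antennae, at 16.2 CPM, so against it alone the difference is smaller. Pdp1, which encodes the activator of Clk, lay in the other direction, with 320 and 568 CPM in antenna and 695, 1021 and 898 CPM in brain (-0.97 ± 0.31, adjusted p = 0.0107). The antennal libraries of Pdp1 differed 1.79-fold among themselves at most. The call was lost without OreR replicate A (-0.62, adjusted p = 0.183) and without the low libraries (-0.65, adjusted p = 0.102). The E-box repressor gene cwo was called higher at 0.52 ± 0.20 (adjusted p = 0.0302), with 70.1 and 104 CPM in antenna overlapping the 70.3, 56.1 and 55.3 CPM of brain. This call too was lost without the low libraries (0.30, 95% interval -0.19 to 0.79, adjusted p = 0.285), without OreR replicate B (0.20, adjusted p = 0.511) and without brain replicate B or C (0.47 and 0.46, adjusted p = 0.0872 and 0.0898).

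In the negative arm tim was called higher and per was not called. For tim, 128 and 130 CPM in antenna stood above 98.1, 91.0 and 95.2 CPM in brain (0.45 ± 0.16, adjusted p = 0.0231), and the groups did not overlap. The call was lost without the low libraries (0.39, 95% interval -0.06 to 0.85, adjusted p = 0.136) with either OreR library left out (0.46 and 0.43, adjusted p = 0.0756 and 0.0978) and without brain replicate B (0.42, adjusted p = 0.0626). As for cyc, the signs for tim and cwo depended on the unit, since on log2 TPM they were -0.24 and -0.18 and not called. The median over all genes tested was 0.174 in CPM and -0.362 in TPM, and tim and cwo lay above that median in both units. For per, antennal libraries at 28.2 and 28.4 CPM fell inside the brain range of 56.7, 27.3 and 15.4 CPM (-0.23 ± 0.60, adjusted p = 0.759). Without the low libraries per was lower in antenna, at -1.01 ± 0.27 (adjusted p = 0.0051), in a fit that called 54% of 12140 genes and in which the single brain library left in its group was assumed to vary like the other groups.

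Both kinase genes were lower in antenna, at 0.495-fold for dbt and 0.499-fold for sgg. The counts of dbt, the casein kinase that marks PER for degradation, were 94.6 and 110 CPM in antenna against 168, 215 and 237 CPM in brain (-1.02 ± 0.22, adjusted p = 0.000385). Those of sgg, the GSK3 kinase that acts on TIM, were 381 and 511 CPM against 822, 988 and 869 CPM (95% interval -1.49 to -0.51, adjusted p = 0.00107). No antennal library of either gene reached the level of any brain library in the series. Both calls stood without the low libraries, at -0.72 ± 0.10 for dbt and -0.89 ± 0.23 for sgg.

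**Figure D1:**
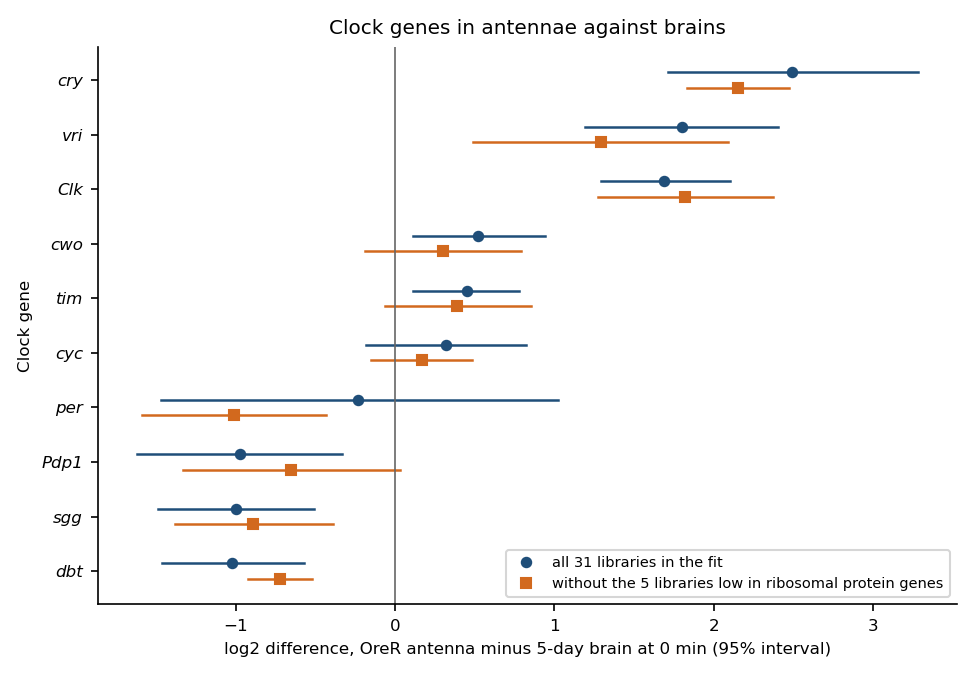
Log2 difference between unstimulated OreR antennae (2 libraries) and unstimulated 5-day brains (3 libraries) for each clock gene on the vertical axis, with 95% intervals as lines, in the fit with all 31 libraries (blue circles) and without the 5 low libraries (orange squares). The intervals of cry, vri and Clk lay above 0 and those of dbt and sgg below 0 in both fits, while the interval of per narrowed from -1.47 to 1.02 to -1.59 to -0.43.

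Photoreceptors carry clocks too, and their markers differed between the compared libraries. The 9 markers summed to 9478 CPM in OreR antenna replicate A, to 945 CPM in replicate B and to 146 to 252 CPM in the brain libraries, and all 9 were called higher in antenna. With replicate B as the only antennal library the differences were 2.40 for cry, 1.82 for vri and 1.66 for Clk, against 2.57, 1.76 and 1.71 with replicate A alone. The part of photoreceptor RNA in them was not tested. In each of these fits the single antennal library was assumed to vary like the other groups. The antennal libraries were run on a NextSeq500 and the brain libraries on a HiSeq2000 or a NextSeq500, with no instrument given per library, so that tissue and instrument cannot be told apart.

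Other genes of the clock pathway that were called were mostly lower in antenna, while all genes called were split into 3538 higher and 3297 lower. Of 28 regulators of the clock proteins, 2 were higher and 15 lower in antenna (median log2 difference -0.65), and of 22 output and light input genes, 4 were higher and 12 lower (median -1.48). Of all genes 58.1% were called. The median over the 10 core members was 0.39. The smallest adjusted p-values belonged to Mmp1, a matrix metalloprotease that can cleave the clock neuropeptide PDF, higher by 4.85 ± 0.23, and to twit, a Ly6-family gene, higher by 2.70 ± 0.14. On the lower side stood NPF (-5.07 ± 0.39) and Dh44 (-5.34 ± 0.44), neuropeptide genes of brain neurons. Singled out after its value was seen, qsm, a gene of the light response of TIM, was at 63.8 and 65.9 CPM in OreR antenna and at 1.06 to 3.19 CPM in brain at 0 min (4.84 ± 0.53). Pdf itself, the transmitter of the ventral lateral clock neurons, was at 0.129 and 0.257 CPM in those antennae and 19.3 to 20.1 CPM in those brains.

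Transcript shares also separated the tissues for part of the members. The files listed 2 transcripts of per, 9 of tim, 5 of Clk, 5 of vri, 13 of Pdp1, 3 of cwo, 4 of dbt, 17 of sgg and 1 each of cyc and cry. Shares of a gene's estimated counts are described without a test, since they were looked through after the values were seen and kallisto divides shared reads by its model. The pair tim-RB and tim-RT, for example, received the same share in every library.

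For dbt, the transcript dco-RB held 3.76% to 23.8% of the gene's estimated counts in antennae and 0% to 1.3% in brains, with no overlap. The transcript dco-RD, whose 3′ end runs 1101 bases beyond those of dco-RB and dco-RC (chr3R:31054085-31055185, BDGP6.54), held 58% to 80.6% in antennae and 79% to 95.4% in brains. This added stretch lies in untranslated sequence, beginning 1343 bases after the stop codon of dco-RD. The coding sequences of these transcripts were not compared here. For sgg, a gene with many start sites, sgg-RF held 27.1% to 36.7% in antennae and 10.9% to 15.8% in brains, while sgg-RR held 34.1% to 47.5% and 56.8% to 82.5%. The transcript sgg-RD held 6.87% to 11.3% in antennae and 0.34% to 1.16% in brains. For Pdp1, the transcript Pdp1-RJ held 3.33% to 13.8% in antennae and 0.2% to 1.55% in brains, and Pdp1-RP 39.8% to 54.2% and 54.5% to 73.1%. None of these ranges overlapped, apart from that of dco-RD. The share of transcripts of all genes with ranges apart between the tissues was not counted, so this does not set these 3 genes apart from others. The ranges of all other transcripts that reached 10% of their gene in any library, among them those of Clk, vri, cwo and tim, overlapped between the tissues.

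The 2 transcripts of per differ by an intron of 86 bases in the 3′ untranslated region (chrX:2692391-2692476, 111 bases after the stop codon), which is spliced in per-RB and kept in per-RA. Splicing of this intron is known to depend on temperature. The share of per-RB was 0% to 31% in brains (median 11%) and 15% to 48.2% in antennae (median 34%), and the tissues overlapped. Within antennae the genotypes did not. The 4 OreR libraries held 15%, 25.6%, 28.8% and 16.5% per-RB, and the 4 Orco2 libraries 48.2%, 39.2%, 41.5% and 41.8%. Stimulated and unstimulated libraries overlapped within each genotype. Pdp1-RJ likewise held 3.33% to 5.69% in OreR and 9.46% to 13.8% in Orco2 antennae. The share of transcripts of all genes separated between the genotypes was not counted, so this does not set per and Pdp1 apart from other genes.

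**Figure D2:**
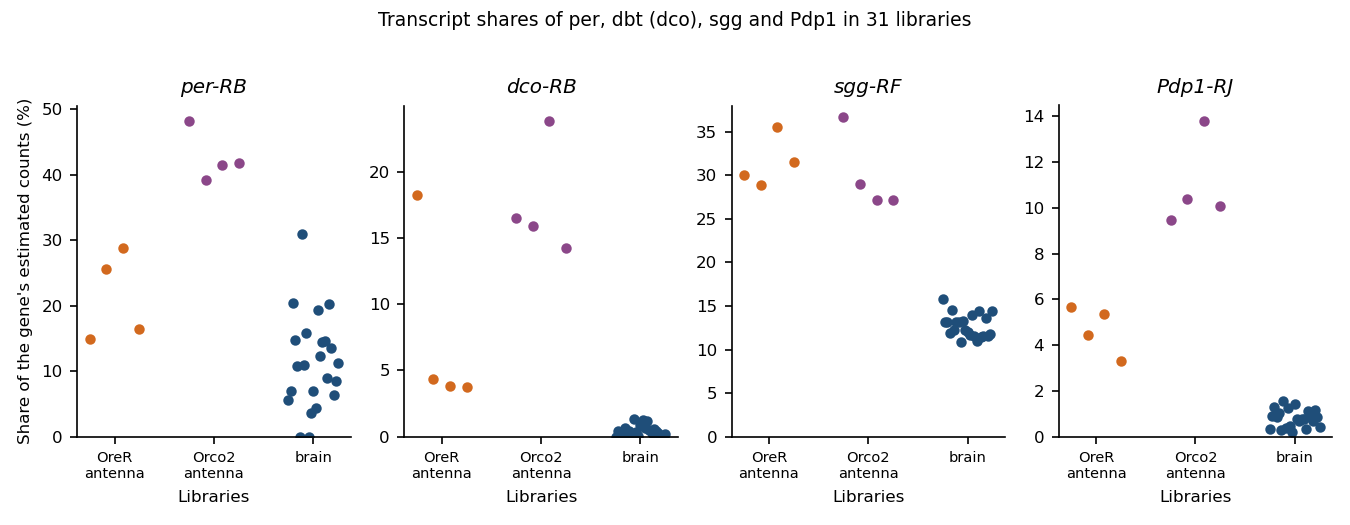
Share of the gene's estimated counts (%, vertical axis, from 0) held by per-RB, dco-RB of dbt, sgg-RF and Pdp1-RJ in OreR antennae (4 libraries), Orco2 antennae (4 libraries) and brains (23 libraries), 1 point per library. The antennal points of dco-RB, sgg-RF and Pdp1-RJ lie above all brain points, and per-RB is at 39.2% or more in Orco2 antennae and at 28.8% or less in OreR antennae.

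No clock gene passed the test for odor and light in brain at any time tested. In 5-day brains, 0 of 10 members passed at 10, 20, 30 or 45 min against 0 min, nor in the joint test over the times, with 0% of 10431 genes called in each. No member had an unadjusted p under 0.05 in these comparisons, where 93 to 229 of all genes did. DESeq2 called 4 to 14 genes and limma on log2 TPM 0 genes, with no member among them. At 30 min the members' log2 differences lay between -0.25 for Pdp1 and 0.49 for per, with 0 min shared by all 4 time comparisons. Without the low libraries, which leaves replicate A alone at 0 min, both turned sign (-0.28 for per and 0.10 for Pdp1), and vri was lowest at -0.46. In that fit the unadjusted 95% intervals of vri lay below 0 at 20 min (-1.41 to -0.04, adjusted p = 1) and 45 min (-1.41 to -0.13, adjusted p = 0.996), and no member passed.

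The negative arm shows how wide these limits are. For per, the 0 min libraries stood at 53.5, 26.0 and 15.1 CPM and the 30 min libraries at 51.4, 47.5 and 33.8 CPM. At 10, 20 and 45 min the values were 41.3, 35.4 and 42.9 CPM, then 50.6, 49.2 and 19.5 CPM, then 49.8, 49.8 and 30.7 CPM. The times overlapped, and the spread at 0 min was wider than any difference of means. For tim, the target of CRY, the values were 92.6, 86.7 and 93.5 CPM at 0 min, 82.9, 83.7 and 82.7 CPM at 10 min and 101, 94.6 and 82.3 CPM at 20 min. They were 78.4, 82.9 and 98.1 CPM at 30 min and 77.6, 85.9 and 86.5 CPM at 45 min. The 10 min and 45 min libraries of tim all lay below those of 0 min, but by less than the test could separate (-0.13 ± 0.12 at both times, adjusted p = 0.884 and 0.935).

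In older brains 30 min of odor and light again gave 0 of 10 members against 0 min, with 0% of genes called at 10 days and 0% at 25 days. No member's difference between ages in the response at 30 min passed either, where 0% of genes passed the interaction at 10 and at 25 days. DESeq2 called 101 genes at 10 days and 1 at 25 days, none of them a member. Averaged over the 3 ages, a comparison added after the data were seen, 30 min against 0 min called 0% of genes by edgeR (295 with an unadjusted p under 0.05), 28 by DESeq2 and no member by either. With all libraries the members' 95% intervals for this average lay between -0.57 and 1.04. They were also taken without the low libraries, which were set apart after the data were seen. That fit left 1 library each in the 5-day 0 min group and in both 25-day groups, assumed to vary like the other groups. Its intervals are therefore no firm bounds on a response. The 95% intervals were then -0.17 to 0.14 for tim, -0.02 to 0.17 for dbt, -0.07 to 0.27 for cry, -0.24 to 0.25 for sgg, -0.40 to 0.31 for per and -0.62 to 0.17 for vri. They were -0.18 to 0.17 for cyc, -0.33 to 0.29 for Pdp1, -0.05 to 0.36 for cwo and -0.15 to 0.52 for Clk. At 10 days alone the unadjusted interval of cwo lay above 0 in that fit (0.02 to 0.62, adjusted p = 0.882). Protein levels were not measured.

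None of the 28 regulators and none of the 22 output and light input genes passed at any time or age against 0 min. Their medians at 30 min in 5-day brains were -0.09 and 0.03.

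**Figure D3:**
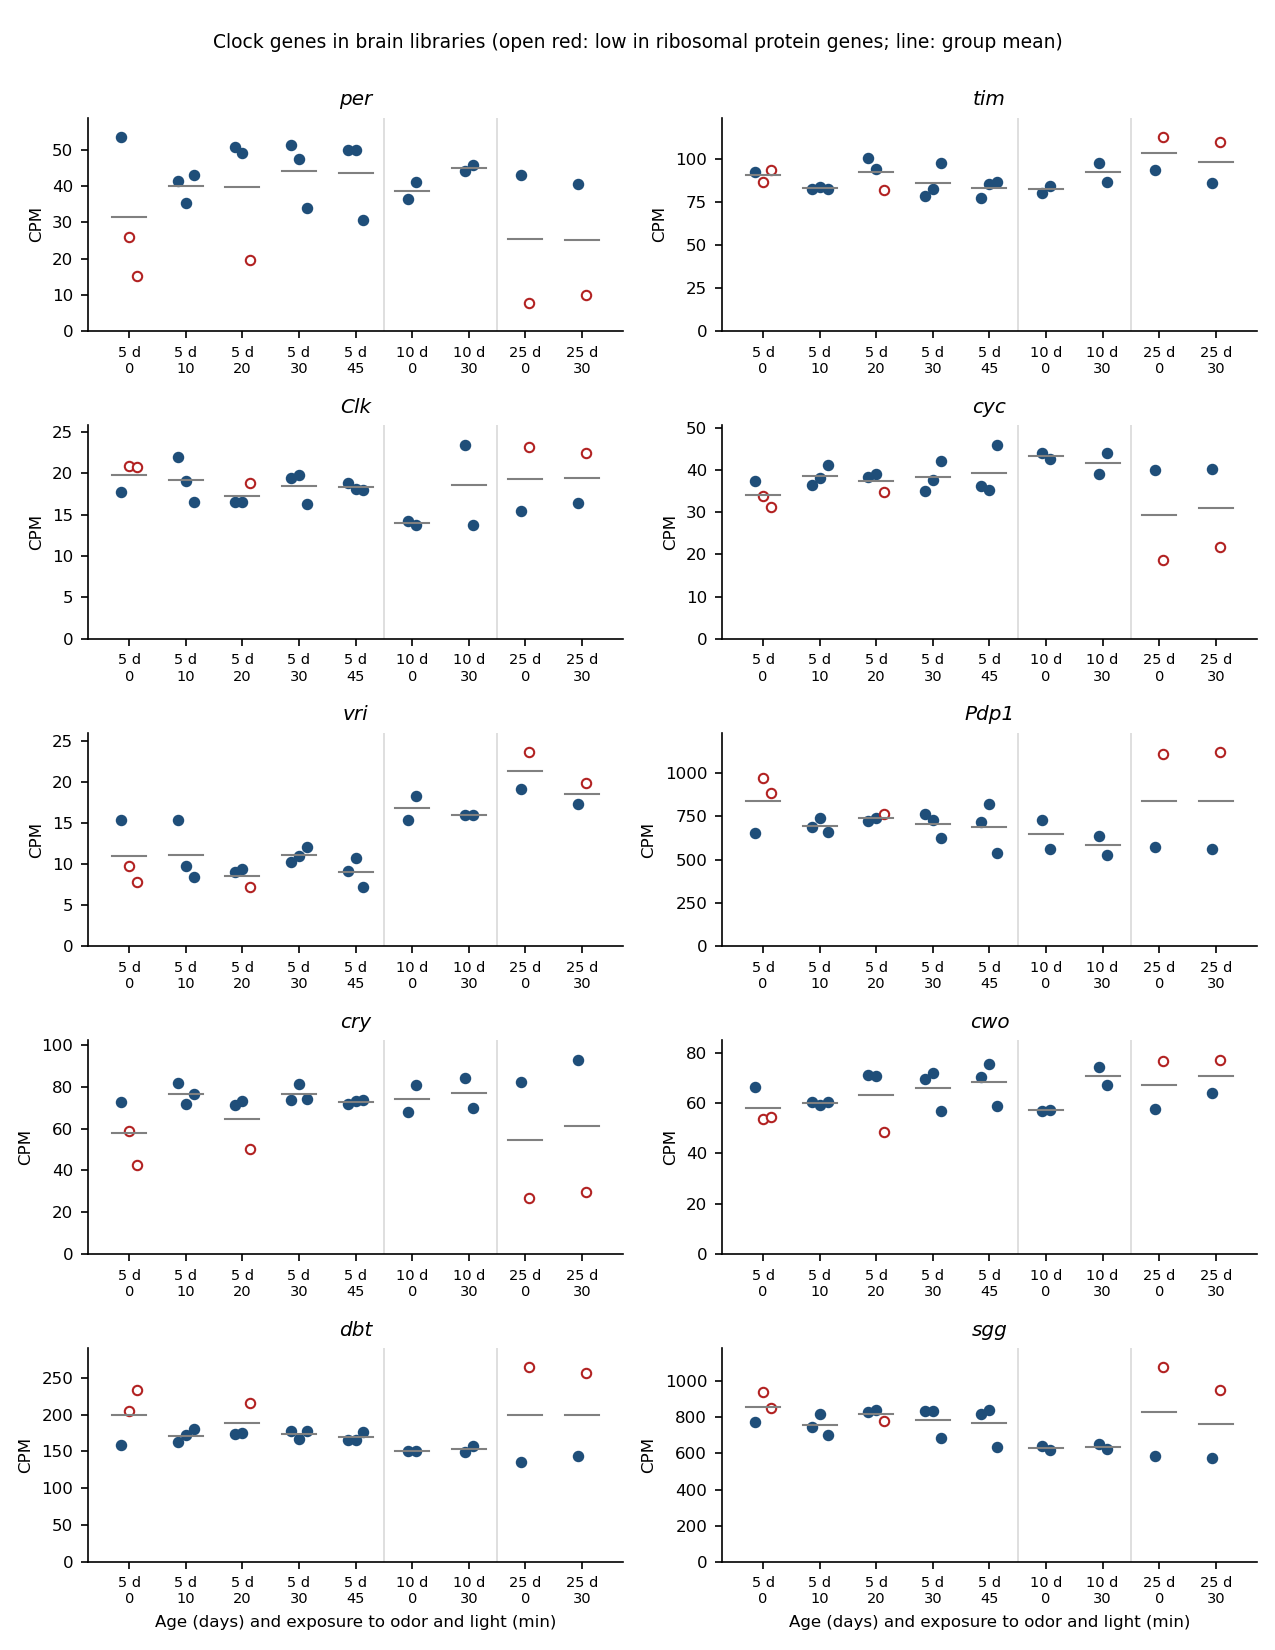
Normalised CPM (vertical axes, from 0) of the 10 clock genes in the 23 brain libraries by age and exposure, 1 point per library with the group mean as a line, and the 5 low libraries as open red circles. Open circles are lowest in per, cry and cyc and highest in dbt, and vri is at 15.4 CPM or more in all 10-day and 25-day libraries.

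In antennae, exposure to odor and light gave 0 of 10 members in OreR and 0 of 10 in Orco2, with 0% of 11298 genes called in each genotype and 0% for the interaction of genotype and exposure. In OreR, 186 genes had an unadjusted p under 0.05, none of them a member, and DESeq2 called 9 genes. In Orco2, 241 genes did, with vri as the only member, and DESeq2 called 30 genes but no member. The values of vri were 44.3 and 45.9 CPM in unstimulated and 62.3 and 52.3 CPM in stimulated OreR antennae. In Orco2 antennae they were 76.8 and 59.8 CPM without and 151 and 79.2 CPM with the stimulus (0.75, 95% interval 0.06 to 1.44, adjusted p = 1). The high value came from stimulated replicate B, which was also the highest antennal library in tim (234 CPM, with the others at 128 to 170 CPM) and in per (56.0 CPM, with the others at 28.5 to 43.7 CPM).

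Between the genotypes no clock gene passed the test. Without stimulus 606 genes were called (5.36% of 11298) and 0 of 10 members, and after stimulus 808 genes (7.15%) and 0 of 10 members. No member had an unadjusted p under 0.05 without stimulus, and per and vri did after it. After stimulus per was at 29.4 and 28.5 CPM in OreR and 56.0 and 39.3 CPM in Orco2 (0.72 ± 0.18, adjusted p = 0.0619), and vri was higher by 1.01 ± 0.29 (adjusted p = 0.0976). In both genes every Orco2 library stood above every OreR library, except that vri at 59.8 CPM in an unstimulated Orco2 library lay below 62.3 CPM in a stimulated OreR library. The share of all genes separated by genotype in this way was not counted, so this does not set per and vri apart from other genes. DESeq2 called both genes after stimulus, as did the fit without Orco2 stimulated replicate C, in which replicate B alone stood for that group. The other 8 members had 95% intervals that included 0 in both comparisons, the narrowest being that of cry after stimulus (-0.16 to 0.30).

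Among other genes of the pathway, 0 of 27 regulators tested differed between the genotypes. Of 22 output and light input genes, 2 were higher and 1 lower in Orco2 without stimulus, and 2 were higher and 3 lower after it, beside 5.36% and 7.15% of all genes. The neuropeptide gene CCHa1 was at 5.50 and 6.52 CPM in OreR and at 12.5 and 13.8 CPM in Orco2 without stimulus (1.13 ± 0.18, adjusted p = 0.0149), and to (takeout), a clock output gene, was higher by 0.73 ± 0.12. The gene twit was lower, with 110 and 112 CPM in OreR and 56.4 and 64.0 CPM in Orco2 (-0.88 ± 0.10, adjusted p = 0.00391). After stimulus the same genes passed, with twit at -0.82, CCHa1 at 1.17 and to at 0.65, and e (ebony), which conjugates beta-alanine to amines, was lower (-1.70 ± 0.30). Photoreceptor markers overlapped between the genotypes, at 945 to 9478 CPM in OreR and 2700 to 11565 CPM in Orco2, and none of the 9 was called. Without stimulus, the markers Lsp2 of fat body (3.28), Sr-CI of hemocytes (1.02) and Ir25a of olfactory neurons (0.99) were called higher in Orco2, and Mlp84B of muscle (-0.67) lower. After stimulus, wrapper of glia (2.01), Ir25a, Sr-CI (0.89) and btv of Johnston's organ (0.69) were called higher, and TpnC41C (-1.73) and Mlp84B (-0.72) of muscle lower. The part of such markers in the clock gene values was not tested.

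With age, vri stood apart from the other members. It was higher in every library of 10-day and 25-day brains than in every library of 5-day brains. The 15 libraries at 5 days ran from 7.16 to 15.3 CPM with a median of 9.72 CPM. The 10-day libraries were at 15.4 and 18.3 CPM at 0 min and 16.0 and 16.0 CPM at 30 min. The 25-day libraries were at 19.1 and 23.6 CPM at 0 min and 17.3 and 19.8 CPM at 30 min. The gap to the highest 5-day libraries, replicate A at 0 and at 10 min with 15.3 CPM each, was narrow. The number of all genes separated by age in this way was not counted, so the separation does not set vri apart from other genes.

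In the comparisons of each age at each time, vri did not pass. At 25 against 5 days the log2 difference was 0.97 ± 0.27 at 0 min (adjusted p = 0.0805) and 0.74 ± 0.27 at 30 min (adjusted p = 0.196). At 10 against 5 days it was 0.63 ± 0.27 at 0 min (adjusted p = 0.26) and 0.52 ± 0.27 at 30 min (adjusted p = 0.709). These comparisons called 1.65%, 0.489%, 0.115% and 0.671% of genes and 0 of 10 members each. DESeq2 called vri at 25 days and 0 min (adjusted p = 0.0258). Averaged over 0 and 30 min, comparisons added after the data were seen, vri was the only member called at 25 against 5 days, by 0.85 ± 0.19 or 1.81-fold (adjusted p = 0.01 by edgeR), where 12% of genes were called. At 10 days the average was 0.58 ± 0.19 (adjusted p = 0.0993), with 3.3% of genes and 0 of 10 members called.

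The call of vri was lost without the low libraries (0.48 ± 0.24, adjusted p = 0.178), a fit in which replicate A at 0 min, with the highest 5-day value, is alone in its group. It was also lost when only the compared libraries were fitted (0.87, adjusted p = 0.0952). With fragment length as a batch term the difference was 1.14 (adjusted p = 0.00236). Markers of other cells moved with age in the same comparison. The 9 photoreceptor markers had a median of 1.38 with 3 called higher, at 218 to 1347 CPM summed in 25-day brains against 90.8 to 530 CPM in 5-day brains. Of 4 hemocyte markers, 3 were called higher (NimC1, Sr-CI and Hml). Of the glial markers, Eaat1 was called lower (-0.86) and wrapper higher (0.46), and apolpp of fat body was called higher (0.98). The part of these cells in the difference of vri was not tested.

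The kinase gene dbt was lower with age once the low libraries were left out. In the remaining 18 libraries it ran from 159 to 180 CPM in 12 libraries at 5 days and from 149 to 157 CPM in 4 libraries at 10 days. It was at 135 and 143 CPM in 2 libraries at 25 days, with no overlap between ages. The other 25-day libraries, left out as low, were at 257 and 264 CPM. The share of all genes separated by age in these 18 libraries was not counted, so this does not set dbt apart from other genes. The log2 difference averaged over 0 and 30 min was -0.26 ± 0.06 at 25 against 5 days (adjusted p = 0.0187), in a fit that called 13.8% of 10614 genes and only dbt among the members, and -0.15 ± 0.05 at 10 against 5 days (adjusted p = 0.074). The ribosomal protein genes moved with this order: their mean log2 deviation was -0.24 to 0.44 in the 12 libraries at 5 days, 0.74 to 0.84 at 10 days, and 0.89 and 0.92 in the 2 libraries at 25 days, and their part in the result was not tested. In this fit both 25-day groups and the 5-day 0 min group were 1 library each, assumed to vary like the other groups. The 2 libraries at 25 days also shared a fragment length (an offset of 325 bases) that no 5-day library had (335 or 369 bases), so that age and that difference cannot be told apart there. With the low libraries, which held 205 to 264 CPM of dbt, it was 0.10 ± 0.17 at 25 days. The levels of sgg went in the same order without the low libraries (637 to 843, 621 to 652, and 575 and 585 CPM), overlapping between 5 and 10 days, and its difference at 25 days of -0.43 ± 0.15 did not pass (adjusted p = 0.0729). The members tim, cyc, Clk and Pdp1 had intervals that included 0 at both ages without the low libraries, and so did per and cwo. For cry the averaged difference at 25 days was 0.23 without the low libraries (95% interval 0.01 to 0.45) and did not pass (adjusted p = 0.143), and with them it was -0.21 (95% interval -0.82 to 0.40).

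**Figure D4:**
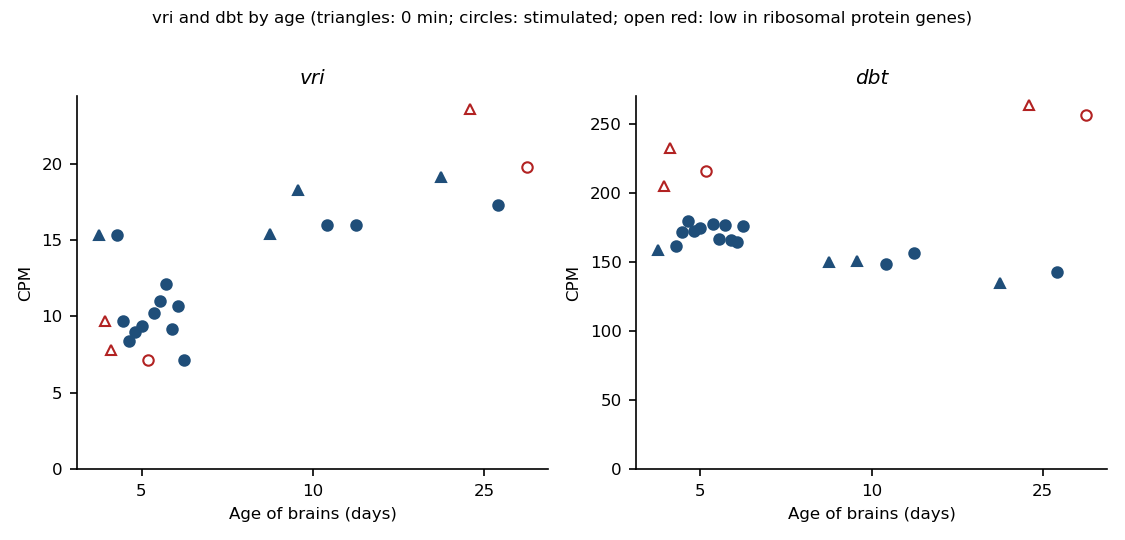
Normalised CPM (vertical axes, from 0) of vri and dbt in 5-day (15 libraries), 10-day (4 libraries) and 25-day brains (4 libraries), with triangles for 0 min, circles for stimulated libraries and open red symbols for the low libraries. All older libraries of vri lie at 15.4 CPM or above and all 5-day libraries at 15.3 CPM or below, and filled symbols of dbt fall from 159 to 180 CPM at 5 days to 135 and 143 CPM at 25 days.

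Several clock outputs differed with age in brain. Averaged over 0 and 30 min, 5 of 22 output and light input genes were higher and 2 lower at 25 against 5 days, and 1 of 28 regulators was higher and 1 lower, beside 12% of all genes. The neuropeptide gene NPF was at 26.1 to 45.0 CPM in 5-day brains, 44.0 to 59.7 CPM in 10-day brains and 55.3 to 75.2 CPM in 25-day brains (0.94 ± 0.13, adjusted p = 0.000843, at 25 days). Mmp1 was at 11.5 to 23.1 CPM at 5 days and 28.9 to 33.3 CPM at 25 days (1.04 ± 0.16, adjusted p = 0.00151). NPF and Mmp1 also passed at 25 against 5 days at 0 min alone, by 1.16 and 1.25. Dh31, a neuropeptide gene of dorsal clock neurons, was higher by 0.81 ± 0.19, and na (narrow abdomen), which encodes a sodium leak channel that sets clock neuron firing, was lower (-0.86 ± 0.21). At 10 against 5 days, where 3.3% of all genes were called, NPF was higher (0.68 ± 0.13) and Nf1, the neurofibromin gene, lower (-0.66 ± 0.17). The 25-day differences include the low libraries, which are replicate B of both 25-day groups. Replicate A of both groups had a fragment length (an offset of 325 bases) that no 5-day library had. Hemocyte markers were called higher in the same averaged comparison at 25 days. The part of these in the output genes' differences was not tested.

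The low libraries carried the widest spread of the clock genes in brain. In the 5 low libraries per stood at 7.70 to 26.0 CPM against 30.7 to 53.5 CPM in the other 18, cry at 26.6 to 59.0 against 68.0 to 92.9 CPM, and cyc at 18.7 to 34.7 against 35.1 to 46.0 CPM. For dbt the order was turned, with 205 to 264 against 135 to 180 CPM. The sets did not overlap in these 4 genes. How many of all genes were separated in this way was not counted, so this does not set the 4 apart from other genes. Within the 25-day 0 min group, replicate A held 42.9 and replicate B 7.70 CPM of per, and 135 and 264 CPM of dbt. The members tim, Clk, vri, cwo, Pdp1 and sgg overlapped between the low and the other libraries.

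**Figure D5:**
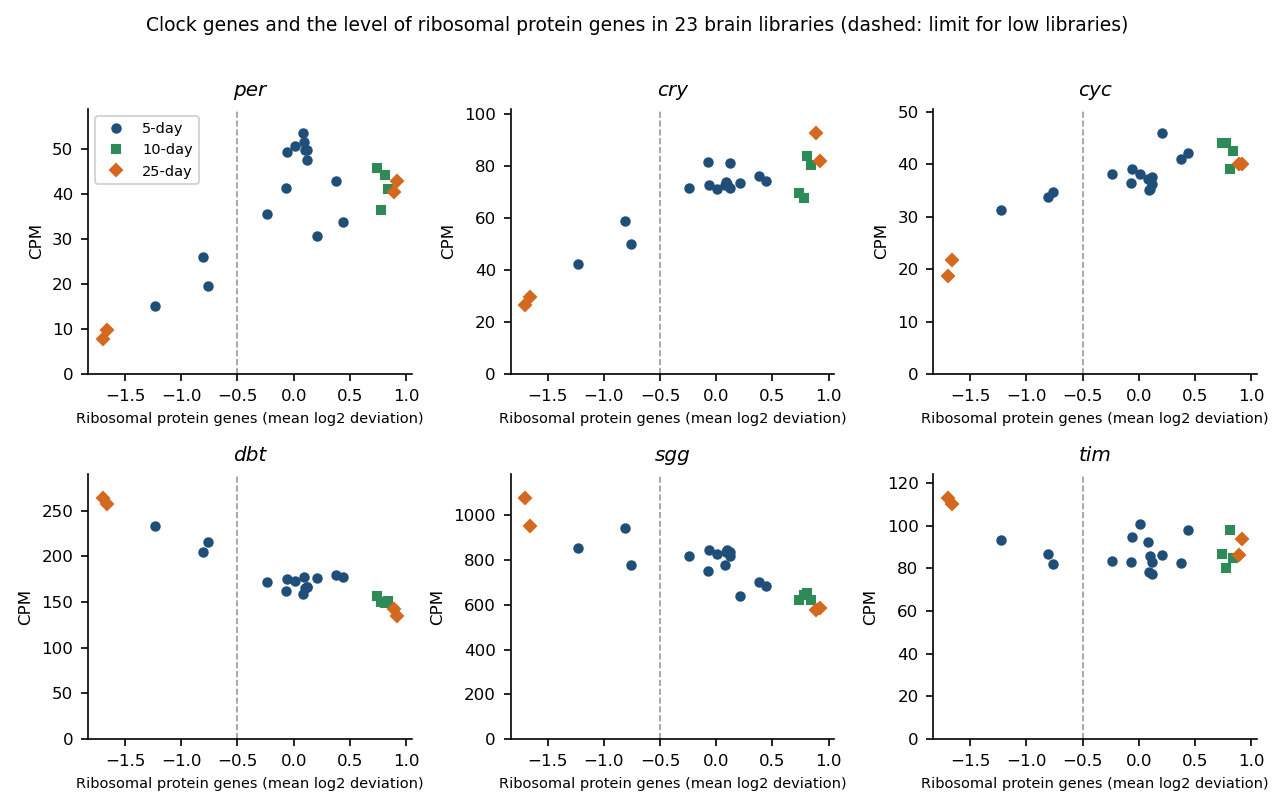
Normalised CPM (vertical axes, from 0) of per, cry, cyc, dbt, sgg and tim against the mean log2 deviation of 81 ribosomal protein genes (horizontal axis) in 23 brain libraries, by age, with a dashed line at the limit of -0.5. Left of the line per, cry and cyc are lower and dbt higher than in all libraries to the right, while tim overlaps.

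Co-variation between members was measured on deviations of log2 CPM from the group mean over 23 brain libraries, with a permutation test within groups (100000 permutations) and adjustment over 45 pairs. Of these, 9 pairs passed. The share of pairs of other genes that would pass was not measured, so the count does not set the members apart from other genes. The steadiest pairs linked cyc, Pdp1 and sgg. The correlation of Pdp1 with sgg was r = 0.94 (Spearman rho 0.90, adjusted p = 0.00765), 0.84 in the 19 libraries left without the 2 farthest, both at 25 days, and their partners, and 0.86 in the 15 libraries left without the low libraries and the groups they reduced to 1. For cyc with sgg it was -0.94 (adjusted p = 0.0402; rho -0.77, adjusted p = 0.0747), -0.89 in 21 libraries without the 2 farthest and -0.89 in the 15. For cyc with Pdp1 it was -0.91 (rho -0.82, adjusted p = 0.0184), then -0.89 and -0.80. Among the 15, replicate C of the 5-day groups at 10, 30 and 45 min had the largest total counts of its group. This replicate was lowest in its group in Pdp1 (661, 624 and 536 CPM) and sgg (702, 686 and 637 CPM). It was highest in cyc (41.1, 42.2 and 46 CPM) and lowest in summed neuronal markers (10377, 9955 and 9632 CPM). The part of this replicate in the links of cyc, Pdp1 and sgg was not tested.

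Pairs of per, cry and dbt were weaker without the low libraries. The correlation was 0.92 for per with cry (rho 0.80, adjusted p = 0.0192), -0.95 for per with dbt (rho -0.84, adjusted p = 0.0184) and -0.97 for cry with dbt (rho -0.86, adjusted p = 0.0153). These became 0.17, -0.37 and -0.50 in the 15 libraries. The partners Clk and cyc varied in opposite directions (-0.75, rho -0.82, adjusted p = 0.0137, and -0.56 without the low libraries), Clk with Pdp1 in the same direction (0.72, then 0.45), and vri with cwo likewise (0.55, then 0.24). By Spearman's rho cyc with sgg and vri with cwo did not pass, and the other 7 pairs did. The pair per and tim, repressors that act as a complex, did not pass (-0.43, adjusted p = 0.478). The ribosomal protein level moved with 7 members within groups, with adjusted p-values under the threshold by Pearson's r. They ran from r = 0.96 for cry, 0.93 for cyc and 0.91 for per to -0.95 for dbt. The share of all genes that moved with this level was not measured, so the count does not set the members apart from other genes. By Spearman's rho per (adjusted p = 0.0535) and dbt (adjusted p = 0.0565) did not pass. The relation did not pass for tim (-0.42, adjusted p = 0.597), vri (0.02) or cwo (-0.23). Without the low libraries the values were 0.12 for cry, -0.21 for per and 0.47 for dbt, and 0.52 for cyc, -0.44 for Pdp1, -0.68 for sgg and -0.36 for Clk, so that per and dbt turned sign. All values of a library share its depth and normalisation, and the part of the low libraries' RNA in these relations was not tested.

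The gene most like each member over the same 23 deviations, out of 10430 others, was found by Pearson's r as a description only. It was feo for per, with the highest r of the 10 members, Cbs for cry (r = 0.99), Dhrs4 for cyc (0.99), Taf3 for dbt (0.99), plum for sgg (0.99) and Gbeta13F for Pdp1 (0.98). For the other members the values were lower, with sdt for cwo (0.95), RluA-1 for Clk (0.92), Elovl7 for vri (0.90) and ana for tim (0.87). No member was the nearest gene of another.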

How the data were processed

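Total RNA was extracted with TRIzol and turned into libraries with the TruSeq RNA kit, per the labels' protocols. The authors deposited for each library the estimated counts and TPM of 30490 transcripts, per the file headers, made with kallisto 0.43.1. CASAVA 1.7, edgeR 3.18.1 and the dm6 build are named too, per the submitters' processing notes. Neither strand setting nor annotation release is given in the sources used here. The difference between length and effective length in the files, which reflects the fragment length given to kallisto, ran from 298 to 369 bases and partly followed groups.

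Transcripts were assigned to genes with the BDGP6.54 annotation (30255 matched), and the unmatched, with 0.396% to 0.514% of counts, were set aside. The estimated counts of a gene's transcripts were added up, rounded to whole numbers and tested with edgeR 4.0.16 in R 4.3.3 (TMM, filterByExpr, robust quasi-likelihood, 1 coefficient per group) with Benjamini-Hochberg adjustment over all genes and a threshold of 0.05. Brain (23 libraries), antenna (8) and tissue (31) had a fit each. Every adjusted p-value in the text is from this test unless another is named. Errors are standard errors of log2 differences. Alternatives used DESeq2 1.42.0, RLE size factors, no filter, limma 3.58.1 on log2(TPM + 1), a fragment length term, the compared libraries alone, the replicate letter and leaving out single libraries. Fitting was checked on simulated counts.

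The members and lists were chosen with earlier results of these data known. The low libraries, the comparisons averaged over times or ages and the fits without the low libraries were added after the data were seen. By rule the text names all members, up to 4 other clock pathway genes with the smallest adjusted p per comparison and 1 most similar gene per member. Of the transcripts with at least 10% of a gene's counts in any library, those the text describes were chosen after their values were seen, and the others are summarised. qsm, Pdf and the markers were added to these. Rh6, a photoreceptor marker, was not analysed here.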

Additional observations from a re-analysis of the deposited data

How the results depend on the processing

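Counts of called members in the stimulus and interaction comparisons stayed at 0 under every alternative run, and 6 to 8 members passed between tissues. Among the members called between tissues, the differences of tim and cwo were reversed on log2 TPM (-0.24 and -0.18). At 25 against 5 days and 0 min, where 0 members passed, 1 did (vri) with DESeq2, with the fragment length term and with the replicate block, and 0 to 2 with single libraries left out (cyc besides vri). At 30 min 1 did (vri) with the fragment length term. In the averages over times, 0 members at 10 days became 1 with the replicate block (sgg) and with the compared libraries alone (sgg), and 0 to 1 with single libraries left out. The 1 member at 25 days became 0 with the compared libraries alone, and 1 to 3 with single libraries left out, the highest (per, vri and cyc) without 25-day 0 min replicate A. Between Orco2 and OreR antennae 0 members became 4 with the replicate block without stimulus (per, sgg, vri and Pdp1). After stimulus they became 3 with the replicate block (per, tim and vri), 2 with DESeq2, 1 with the fragment length term (per), and 0 to 2 with single libraries left out. Over all genes, DESeq2 called more than edgeR between the genotypes (1106 against 606 without and 1548 against 808 with stimulus) and by age (544 against 172 and 436 against 51 at 25 days, 543 against 12 and 243 against 70 at 10 days, at 0 and 30 min, and 1938 against 1254 and 1084 against 344 averaged). The cause of these changes was not tested. The replicate letters were not taken as pairs. Of same-letter pairs, 44 of 82 in brain and 3 of 8 in antenna correlated above 0.1, pooled over ages and genotypes. Within each antennal genotype, and at 10 and 25 days, same-letter libraries shared a fragment length. At 25 days per was at 42.9 and 40.4 CPM in replicate A and at 7.70 and 9.87 CPM in replicate B. A block within age or genotype was not fitted, so the stimulus tests there include such differences in their spread. A call under the block of letters that was run is no stronger evidence. The block changed no other count of members by more than 1.5 times. The fragment length term could not be fitted between tissues, whose lengths do not cross.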
